A study of Arabidopsis thaliana with 18 samples.

Results

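Polycomb domains are stretches of chromatin in which histone H3 carries trimethylation of lysine 27 (H3K27me3), set by the Polycomb repressive complex at silent genes. Trimethylation of lysine 4 (H3K4me3) is set by Trithorax-group and related methyltransferases around the start of transcribed genes. In plants the 2 marks mostly occupy separate genes, so that a silent gene inside a domain can have an active neighbour directly outside it. The peaks described here lie at that boundary: they are H3K4me3 peaks on chromosomes 1 to 5 that overlapped no H3K27me3 peak but lay at a gap of 1000 bp or less from an H3K27me3 peak of 1000 bp or more, called a domain below. Each was paired with its nearest domain. The rule selected 1506 of 15992 H3K4me3 peaks (9.42%). It used peak positions, which themselves depend on signal.

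The material was shoot-apex-enriched tissue of Arabidopsis thaliana grown for 5 weeks in short days of 8 h light and 16 h dark at 21 °C. ChIP-seq was done on the chr4 mutant, also written chr4/pkr1, and on the wild type, with antibodies against H3K27me3, H3K4me3 or H3, in 3 biological replicates per group (18 samples in 6 groups). CHR4 belongs to the CHD class of ATP-dependent nucleosome remodellers; the labels name no allele. The deposited tables hold 1 value per peak for a pool called treat and 1 for a pool called control, and neither header tells which of them came from the mutant. Directions are therefore given as the treat pool against the control pool. A fall or a rise below means only lower or higher signal in the treat pool, not a loss or gain in the mutant. Because each pool merges 3 replicates, the files hold no measure of replicate error, and library depth is unknown. In pooled tissue, a mark on fewer cells and less of the mark per cell cannot be told apart.

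Signals are the authors' total signal per peak, without a stated unit, and log2 ratios are those of the authors' deposited tables. A peak was called when its deposited false discovery rate (FDR) was under 0.05 and the pools differed at least 1.5-fold. The method behind the FDR is not stated, so a call is no check against replicates. Some called peaks and domains had a width in 1 pool only, and so entered through the pool where they were high. The SPL11 domain had a width of 0 in the treat pool and 1570 bp in the control pool. The domain of AT1G72080 had 1100 bp in the treat pool and 0 in the control pool. As a check of the tissue, 12 of 12 photosynthesis genes and 12 of 12 ubiquitously expressed genes carried an H3K4me3 peak, against 0 of 14 seed maturation genes, 13 of which lay under a domain. Of 16 meristem and boundary genes, 8 carried an H3K4me3 peak and 12 lay under a domain. Over all protein-coding genes, 58.4% lay under an H3K4me3 peak, so these lists do not single out apices.

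The bordering peaks crowded towards the domain edge. Between 0 and 100 bp from the domain lay 230 of them, and each further step of 100 bp held fewer or nearly as many, down to 119 in the last. The median gap was 420 bp, with quartiles at 180 and 680 bp. In 41 pairs the gap was 10 bp or less, and in 17 of these the end of 1 peak was the start of the other. Beyond the limit of 1000 bp, steps of 250 bp held 203 to 292 peaks each, against 506 in the first 250 bp. Peaks just inside the limit resembled those just outside it: 131 peaks at 900 to 1000 bp had a median signal of 23773 and a median log2 ratio of -0.08, and 122 peaks beyond it and up to 1100 bp had 24656 and -0.08.

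**Figure D1:**
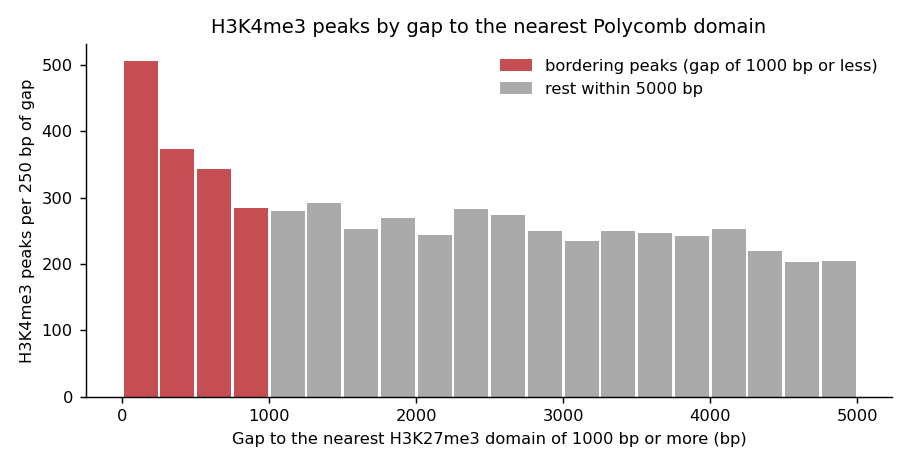
Number of H3K4me3 peaks (y axis) by gap to the nearest H3K27me3 domain of 1000 bp or more (x axis, bp, steps of 250 bp), for peaks that overlap no H3K27me3 peak. The first step, nearest the domain, holds 506 peaks, and the steps beyond 1000 bp hold 203 to 292.

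The 41 pairs with a gap of 10 bp or less had a median H3K4me3 signal of 25783 in the treat pool and 27295 in the control pool, with means over both pools between 6408 and 38088, and 0 of them were called, where 5.97% of all H3K4me3 peaks were. The strongest of them are named first. The peak on EML1, which encodes an EMSY-like histone reader, touched a domain with no protein-coding gene (chromosome 3, boundary at 3871920). Its H3K4me3 signal was 35856 in the treat pool and 40226 in the control pool. At 10 bp from the domain of AT1G49330, the peak of ATPI4K ALPHA, a phosphatidylinositol kinase gene, had 40138 in the treat pool and 36039 in the control pool. A listed gene, CHR11, which encodes an ISWI-type chromatin remodeller, also stood 10 bp from a domain, that of AT3G06390, with 31089 in the treat pool and 35766 in the control pool. AT3G18020, 10 bp from the domain of the homeobox gene WOX1, had 18917 in the treat pool and 22472 in the control pool. The last of these lay below the median of the bordering peaks and the others above it.

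Of the 5193 domains, 1382 were the nearest domain of a bordering H3K4me3 peak (26.6%) and are called bordered. The 30 peaks within reach of 2 domains counted for the nearer one only. A domain reached only as the second is thus among those with no border. In 119 domains a bordering peak stood on each side, and no domain had more than 2. The share with a border was 24.9% among domains of 1000 to under 2000 bp, 27.2% among those of 2000 to under 5000 bp and 29.9% among those of 5000 bp or more. Most bordered domains were short in genes: 844 covered 1 protein-coding gene, 313 covered 2 or more and 225 covered none. Bordering peaks made up a like share of H3K4me3 on each chromosome, from 8.37% of the peaks on chromosome 2 to 9.86% on chromosome 1.

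Both marks usually sat on neighbouring genes. Of 1506 bordering peaks, 1448 lay on a protein-coding gene. Among the 1234 pairs with a gene under each mark, 993 joined direct neighbours and 61 had both marks on 1 gene. The bordering peak lay nearer to the gene end that faced the domain in 1291 of 1448 cases (89.2%), against 2046 of 3891 (52.6%) for the other non-overlapping peaks within 5000 bp of a domain. The gap limit itself favours the facing end, so that this difference is partly set by the choice of members. The gene table used has no strand, and whether the facing end was the start of the gene was not analysed here.

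In level, the bordering peaks matched H3K4me3 peaks far from Polycomb chromatin. Their median signal was 23784 in the treat pool and 24736 in the control pool. Non-overlapping peaks farther out but within 5000 bp of a domain (3996) had 23738 in the treat pool and 25058 in the control pool, and peaks beyond that (9267) had 23885 in the treat pool and 25037 in the control pool. H3K4me3 peaks that overlapped an H3K27me3 peak (1223) were much weaker, with 10226 in the treat pool and 10210.1 in the control pool. Overlapping peaks were also shorter: their median length was 760 bp, where bordering peaks had 930 bp and both outer classes 970 bp. The median total signal of the bordering class was thus within the quartiles of both outer classes, and these comparisons of classes have no replicate check.

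**Figure D2:**
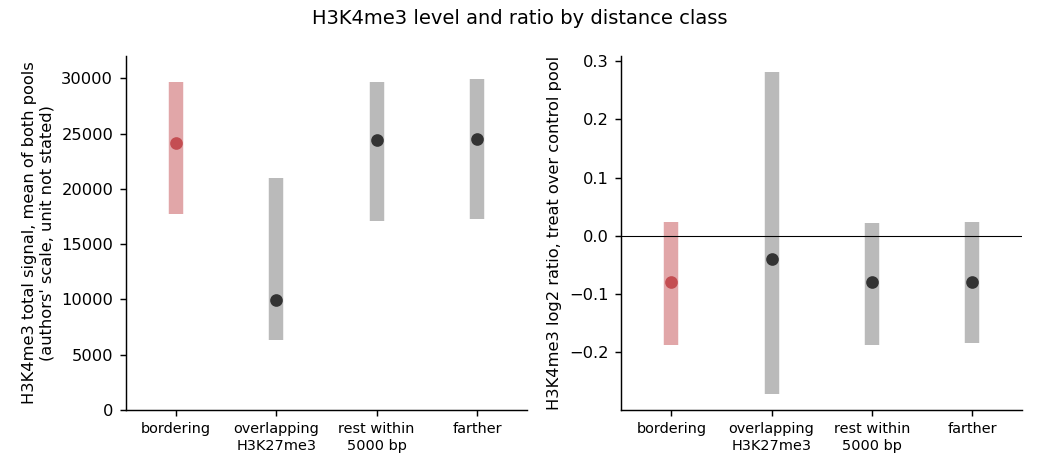
Left, H3K4me3 total signal averaged over both pools (authors' scale, unit not stated); right, log2 ratio of the treat pool over the control pool. Points are medians and bars span the quartiles of 1506 bordering peaks, 1223 peaks overlapping H3K27me3, 3996 other peaks within 5000 bp of a domain and 9267 farther peaks; the bordering class lies level with both outer classes, and the overlapping class is weaker and has the wider spread of ratios.

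The 5 strongest bordering peaks included those of 2 hormone signalling genes. AT1G77940 carried the highest, with 56424 in the treat pool and 62061 in the control pool, at 60 bp from the domain of AGL67, a MADS-box gene. DiT1, a plastid dicarboxylate transporter gene, had 54132 in the treat pool and 56464 in the control pool, beside the domain of MYB46, a regulator of secondary walls. At GAI, which encodes a DELLA repressor of gibberellin signalling, the signal was 46918 in the treat pool and 52281 in the control pool. MAX2, an F-box gene of strigolactone signalling, had 44189 in the treat pool and 49811 in the control pool. AT1G12500 had 44613 in the treat pool and 48179 in the control pool. In all 5 the treat pool was the lower, by less than 1.5-fold, and none was called.

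Between the pools, H3K4me3 at the borders differed little. The median log2 ratio of bordering peaks was -0.08 (quartiles -0.19 and 0.02), beside -0.08 over all H3K4me3 peaks, so that no shift beyond that of the whole mark was seen. Of the 1506 bordering peaks, 1414 (93.9%) were within 1.5-fold in both pools, beside 91.5% of all H3K4me3 peaks, including those that overlapped H3K27me3. Higher signal in the treat pool was called at 20 bordering peaks (1.33%), where 2.44% of all H3K4me3 peaks were called higher. Lower signal was called at 42 (2.79%), where 3.52% of all were called lower. In either direction 62 were called (4.12%), against a background of 5.97% and against 21.1% of the peaks that overlapped H3K27me3. That background includes the overlapping peaks, which the choice of members leaves out. Of the other non-overlapping peaks, 5.06% within 5000 bp of a domain and 4.66% farther out were called, so the bordering share was near theirs. By FDR alone 73 were called (4.85%), against 6.45% of all. The share called was 2.17% within 250 bp of the domain and 6.997% at 510 to 750 bp, then 3.87% at 760 to 1000 bp, without a steady trend. Peak widths differed little, with a median of 20 bp less in the treat pool both at the borders and over all peaks.

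The called peaks were mostly short and weak. The median length was 310 bp for peaks called higher and 560 bp for peaks called lower, against 940 bp for the 1444 not called. Their median signal in the higher pool was 7576 and 9828, against 25654 for those not called. At or above the median of that value over bordering peaks (25277), 752 peaks were not called, 1 was called higher and 0 were called lower. Leaving out peaks under the lower quartile of mean signal left 1 called higher (MMT) and 1 called lower (AT2G15000). With the FDR adjusted once more by Benjamini-Hochberg 0 calls of either mark were left. How that FDR was made is not stated, so the second adjustment is only a stricter limit.

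At or above that median, the peak called higher was that on AT1G75945 (chromosome 1, 28515100 to 28516130). It had a signal of 30506 in the treat pool and was listed at 0 in the control pool. The authors' deposited table gives it an FDR of 0.000669. Its mean over both pools (15253) is below that lower quartile (15719.8 over all H3K4me3 peaks), so the call is lost under the filter. It lay 800 bp from the domain of ATA27, a beta-glucosidase gene known from anthers, whose H3K27me3 signal was 36297 in the treat pool and 40192 in the control pool and was not called. A full-length peak was thus listed in only 1 pool, next to a domain listed in both. Height and width of the peak were also listed at 0 in the control pool. Whether the mark or any usable sequence was missing there was not tested, and H3 was not used. The other called peaks with both pools above 0 differed by up to 25.1-fold, the largest being AT3G59450, which fell to 276 in the treat pool, against 6923 in the control pool.

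A few of the 42 falls and 20 rises are named here after their values were seen. TMM, a receptor-like gene of stomatal patterning, had 6040 in the treat pool and 12096 in the control pool. ERL2, a receptor kinase gene of the same pathway, had a peak of 60 bp with 2707 in the treat pool and 6870 in the control pool. SDS, a meiotic cyclin gene, had 9301 in the treat pool and 14577 in the control pool beside the domain of KNATM. All 3 fell by the call rule, and none of their domains was called. Beside another domain, on ERL2 itself, the peak on AT5G07175 was called higher, with 8888 in the treat pool and 4160.4 in the control pool. Among the rises, MMT, a methionine methyltransferase gene, had the next-highest signal after AT1G75945, with 24960 in the treat pool and 16419 in the control pool.

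H3K27me3 in the bordered domains was lower in the treat pool by a small margin over most domains. The median signal of the 1382 bordered domains was 25950.2 in the treat pool and 29999.5 in the control pool. Their median log2 ratio was -0.23 (quartiles -0.39 and -0.08), against -0.18 for the 3811 domains with no border and -0.14 over all H3K27me3 peaks. The ratio was below 0 in 82.0% of bordered domains and in 73.6% of the others; it was below the median of all H3K27me3 peaks in 65.7% and 55.5%. The difference in medians kept its direction in each length class: -0.25 against -0.19 at 1000 to under 2000 bp, -0.23 against -0.17 at 2000 to under 5000 bp and -0.21 against -0.17 at 5000 bp or more. It is small beside the quartiles of either class and has no replicate check. Bordered domains also had the higher signal in each length class.

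A fall of H3K27me3 was called in 38 bordered domains (2.75%), where 2.37% of all domains were called lower. A rise was called in 6 (0.434%), where 0.25% of all domains were called higher. Together these were 44 (3.18%), against 2.62% of all domains, and by FDR alone again 44, against 2.66%. Over all lengths these shares were near the background. Of the called falls, 28 of 38 (73.7%) were in domains of 1000 to under 2000 bp, as were 79 of the 123 (64.2%) over all domains. In that length class 5.15% of bordered domains and 3.10% of domains with no border were called lower. Domain widths differed little: the median difference was -20 bp, with 626 wider and 727 narrower in the treat pool.

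Across all pairs the ratios of the marks were almost unrelated in rank. Over the 1506 pairs, Spearman's rho of both log2 ratios was -0.01. Over the nearest pair of each of 1382 domains, which removes pairs that share a domain, it was 0.0012. Both ratios were below 0 in 865 pairs and above 0 in 79. H3K4me3 was higher and H3K27me3 lower in 374 pairs, and the reverse held in 188. In 1400 pairs neither mark was called, and in 4 both were.

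**Figure D3:**
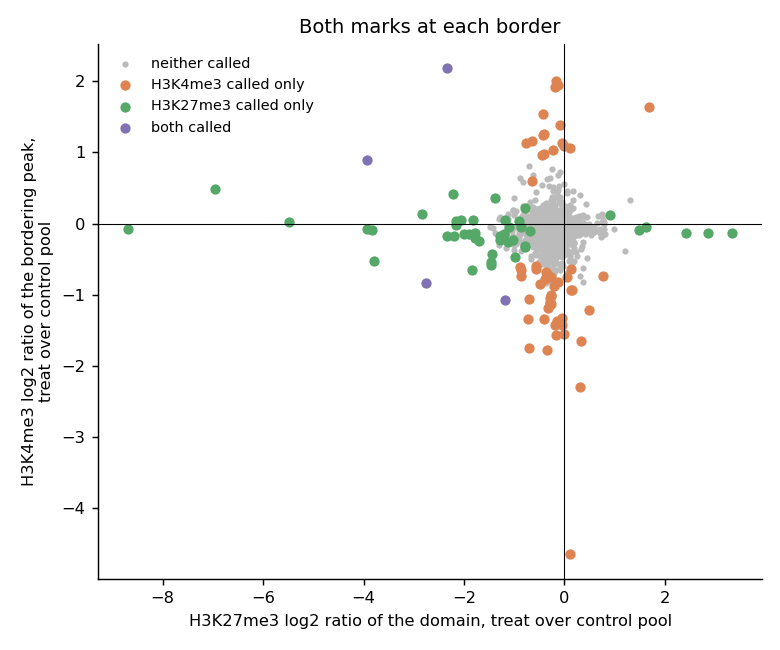
Each point is a bordering H3K4me3 peak (y axis, log2 ratio of the treat pool over the control pool) against the log2 ratio of its H3K27me3 domain (x axis); AT1G75945, listed at 0 in the control pool, is not drawn. Grey points are the 1400 pairs with neither mark called; domains called in H3K27me3 alone (green) lie along the horizontal axis, far from 0 in H3K27me3 and near 0 in H3K4me3.

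Where a fall of H3K27me3 was called, the H3K4me3 peak beside it was mostly at a like level in both pools. The 38 domains called lower made 42 pairs. The median H3K27me3 signal in these pairs was 7579 in the treat pool and 25855 in the control pool, while the median H3K4me3 signal beside it was 22051 in the treat pool and 22671 in the control pool. In 37 of the 42 pairs (88.1%) the H3K4me3 signals were within 1.5-fold of each other, against 1371 of 1458 pairs (94.0%) whose domain was not called. H3K4me3 was called in 4 of the 42 (9.52%), against 58 of the 1458 (3.98%). These differences rest on few pairs and were not tested. The median H3K4me3 log2 ratio was -0.14 (quartiles -0.25 and 0.03), beside -0.08 in pairs whose domain was not called. The 6 domains called higher had H3K4me3 log2 ratios between -0.14 and 0.12 at their borders.

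Individual loci, of which AT4G25320 and the pair FUT11 and ABF4 are named after their values were seen, show these values. The domain of AT4G25320 (chromosome 4, from 12953110) had the largest fall of H3K27me3, to 53.8 in the treat pool, against 22194 in the control pool. The bordering peak on AT4G25315, 40 bp away, had an H3K4me3 signal of 22381 in the treat pool and 23561 in the control pool. A second H3K4me3 peak inside this domain, on AT4G25320 itself, was called higher, with 23148 in the treat pool and 985 in the control pool. At this locus H3K4me3 differed within the domain and not across its edge.

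The domain of ATL9, a ubiquitin ligase gene, had a peak on each side. Its H3K27me3 signal fell to 7235 in the treat pool, against 32196 in the control pool. On one flank TO1, a mitochondrial thioredoxin gene, had an H3K4me3 signal of 31119 in the treat pool and 31649 in the control pool. On the other flank SETH1, a gene of membrane anchor synthesis, had 21721 in the treat pool and 21229 in the control pool. Both flanks were level between the pools while the domain differed 4.45-fold. A domain without a protein-coding gene between FUT11, a fucosyltransferase gene, and ABF4, a transcription factor gene of abscisic acid responses, was also flanked on both sides. That domain had 6542 in the treat pool and 22591 in the control pool. FUT11 had 25259.5 in the treat pool and 29060.2 in the control pool, and ABF4 had 24833 in the treat pool and 27279 in the control pool. Neither flank was called.

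Further called falls with strong signal in the control pool had borders that were not called. At AT2G47210 the domain fell to 10983 in the treat pool, against 35825 in the control pool, and the border on the same gene had 23691 in the treat pool and 28106 in the control pool. The domain of AT4G34380 fell to 18435 in the treat pool, against 42345 in the control pool, beside XLG2, an extra-large G protein gene, with 23541 in the treat pool and 26108 in the control pool. The domain of AT2G46300 fell to 13644 in the treat pool, against 37689 in the control pool, and its border on AT2G46290 had 9701 in the treat pool and 14162 in the control pool. These 3 borders were lower in the treat pool by less than 1.5-fold. The called rise with the strongest signal was that of CBL8, a calcium sensor gene, whose domain rose to 38444 in the treat pool, against 20586 in the control pool. Its border on AT1G64500 had 19013 in the treat pool and 17532 in the control pool.

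**Figure D4:**
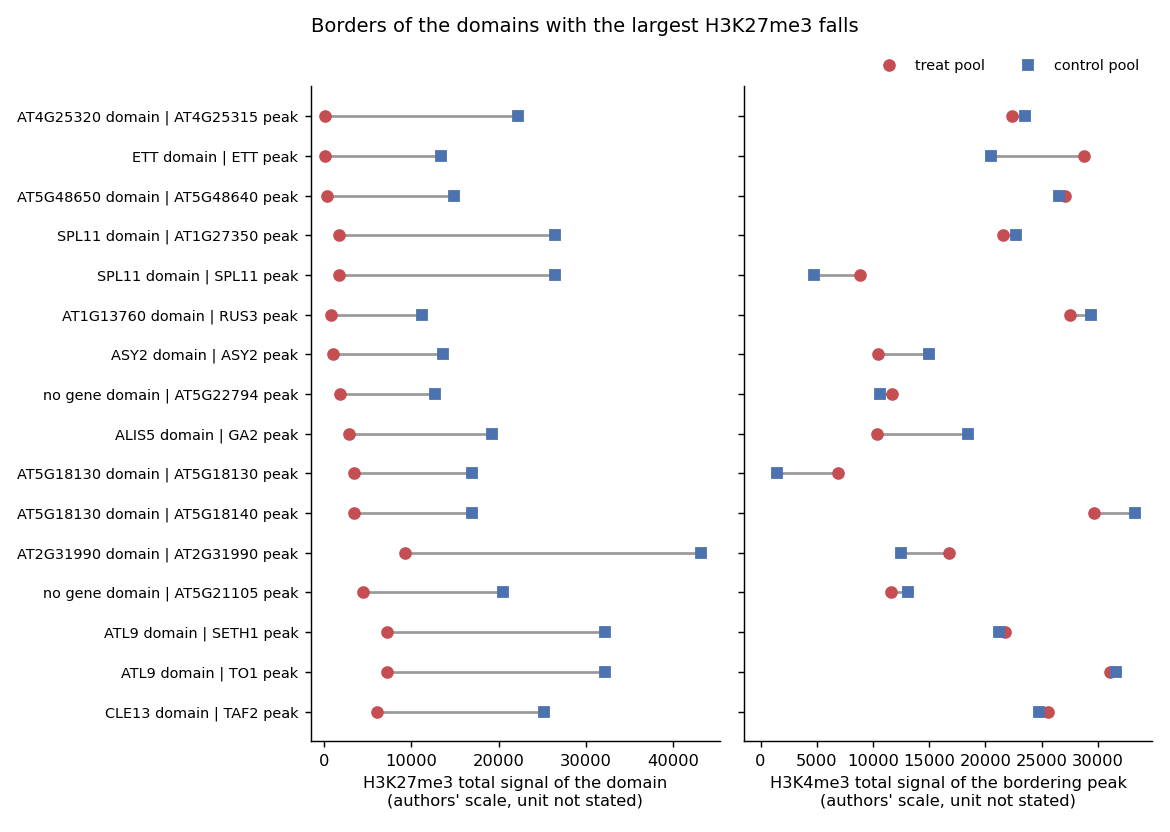
The 16 pairs with the largest called falls of H3K27me3, ordered by the size of the fall. Left, H3K27me3 total signal of the domain; right, H3K4me3 total signal of the bordering peak (authors' scale, unit not stated). Circles are the treat pool and squares the control pool; the circles and squares are far apart on the left and close together in most lines on the right.

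Both marks were called in 4 pairs, all with H3K27me3 lower in the treat pool. SPL11 is a squamosa-promoter-binding transcription factor gene of the age pathway and a target of miR156. Its domain fell to 1739 in the treat pool, against 26445 in the control pool, a 15.2-fold difference. Of the 1570 bp of that domain, only 418 bp lay in SPL11. The bordering peak inside the gene (chromosome 1, 9501930 to 9502510) rose to 8852 in the treat pool, against 4759.75 in the control pool (FDR 0.0449, the authors' deposited table). For the height of that peak the authors' FDR was 0.0739, above the limit for a call. On the other side of the domain, the peak on AT1G27350 had 21575 in the treat pool and 22738 in the control pool. A further H3K4me3 peak that overlapped the domain had 7203 in the treat pool and 8149 in the control pool. Only 1 of the 3 H3K4me3 peaks at this locus was therefore called.

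The second pair with H3K4me3 higher and H3K27me3 lower was on AT5G18130. Its peak of 50 bp had 6847 in the treat pool and 1509 in the control pool, while the domain fell to 3381 in the treat pool, against 16988 in the control pool. The full-length peak on the other side, on AT5G18140, had 29614 in the treat pool and 33266 in the control pool and was not called. In the other 2 pairs both marks fell. GA2, which encodes ent-kaurene synthase of gibberellin synthesis, had an H3K4me3 signal of 10369 in the treat pool and 18473 in the control pool. The neighbouring domain on ALIS5, a flippase subunit gene, fell to 2849.76 in the treat pool, against 19231 in the control pool. DREB1A, a transcription factor gene of the cold response, had 3752 in the treat pool and 7900.15 in the control pool, beside a domain with 11391 in the treat pool and 25894 in the control pool.

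A group of 61 pairs carried both marks on 1 gene, with at least 150 bp of each in the gene in 49. Their H3K4me3 was weaker than elsewhere, with a median of 13597 in the treat pool and 14559 in the control pool, against 24542 in the treat pool and 25407 in the control pool where the marks lay on different genes. H3K27me3 was called lower in 7 of the 61 (11.5%) and in 22 of 1173 pairs on different genes (1.88%). Pairs without a gene under each mark are in neither group. Over all domains 2.37% were called lower, and 5.15% of bordered domains of 1000 to under 2000 bp. The median domain length was 1870 bp in the 61 pairs, against 2395 bp over all pairs. H3K4me3 was called higher in 3 and lower in 6 of the 61 (14.8% in all), where 4.12% of bordering peaks and 5.97% of all H3K4me3 peaks were called. Weak H3K4me3 peaks and short domains were also the ones most often called throughout. Level, domain length and gene arrangement are therefore not separated here, and the difference between the groups of pairs was not tested. In 46 of the 61 the H3K4me3 peak lay nearer to the gene end away from the domain. A domain on the same gene without overlap itself favours that end, so this count is partly set by the choice of pairs.

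Genes of this kind included known regulators, named here after their values were seen. AUX1, the auxin influx carrier gene, had a domain called lower with 10079 in the treat pool and 26135 in the control pool. Its bordering H3K4me3 peak had 20174 in the treat pool and 15779 in the control pool and was not called. ASY2, a gene related to the meiotic chromosome axis gene ASY1, had a domain called lower with 985 in the treat pool and 13572 in the control pool. Its H3K4me3 peak had 10448 in the treat pool and 15017 in the control pool and was not called. ETT, the gene of auxin response factor 3, had H3K4me3 of 28769 in the treat pool and 20462 in the control pool. The authors' deposited table lists its FDR as 0.038, but the difference of 1.41-fold was under the limit for a call. By peak height ETT had 5548 in the treat pool and 3328 in the control pool. The authors' FDR for height was 0.012, so the outcome at ETT depends on the measure. The domain beside it fell to 108 in the treat pool, against 13433 in the control pool; only 28 bp of that domain lay in ETT. At AT2G31990 the domain fell to 9309 in the treat pool, against 43179 in the control pool, and the border had 16778 in the treat pool and 12536 in the control pool, not called. The direction of H3K4me3 thus differed between these genes.

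Few bordered domains held an H3K4me3 peak inside them. Of the 38 domains called lower, 5 (13.2%) overlapped any H3K4me3 peak, against 168 of the 1338 not called (12.6%). The 5 domains held 7 such peaks in all, of which 3 were called higher and 1 lower. Apart from the peak on AT4G25320, those called were only 70 to 120 bp long. In the domains not called, 193 overlapping peaks were found, of which 21 were called higher and 24 lower. Calls were common in this class: 21.1% of all peaks that overlapped H3K27me3 were called, against 5.97% of all H3K4me3 peaks. In the 6 domains called higher, 2 overlapping peaks were found and both were called lower, named here after their values were seen. They lay on AT5G10946, with 14284 in the treat pool and 24028 in the control pool, and on AT2G13550, with 2704 in the treat pool and 7634 in the control pool. At AT2G13550 the domain rose to 19959 in the treat pool, against 3709 in the control pool, while the bordering peak on NAD-ME1, a malic enzyme gene, had 26110.5 in the treat pool and 28631 in the control pool and was not called.

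Between a pair of domains, 1 on each side, stood 30 of the bordering peaks. They were weaker than the rest, with a median signal of 17729 in the treat pool and 18566 in the control pool, and shorter, with a median of 825 bp. A call was made at 3 of the 30, where 4.12% of bordering peaks and 5.97% of all H3K4me3 peaks were called, and their log2 ratios ran between -1.18 and 1.14. The island between the longest domains lay on AT1G62370 (chromosome 1, 23072450 to 23073000), next to the 13640 bp domain of STM, the homeobox gene that maintains the shoot meristem. Its H3K4me3 signal was 8448 in the treat pool and 10363 in the control pool, and that of the STM domain in H3K27me3 was 53913 in the treat pool and 69598 in the control pool. AT1G33110 had 13990.5 in the treat pool and 14435 in the control pool. Neither of these peaks was called.

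The 4 longest bordered domains covered 3 to 9 protein-coding genes each and ended in peaks of differing strength. The domain of AT2G19060 was 22020 bp long, with an H3K27me3 signal of 41365 in the treat pool and 39668 in the control pool. Its left border on TXND9, a thioredoxin-domain gene, had an H3K4me3 signal of 25316 in the treat pool and 32679 in the control pool. Its right border on AT2G19080 had 26907 in the treat pool and 22889.8 in the control pool. The treat pool was the lower on the left and the higher on the right, and neither was called. The next longest, on AT3G20980, spanned 20740 bp and ended beside RBL, whose product is related to a subunit of H3K4 methyltransferase complexes. RBL had 39301 in the treat pool and 38187 in the control pool, above the upper quartile of the bordering peaks (29675). The peak on AT4G15640, beside the domain of AT4G15710, had 18619 in the treat pool and 21471 in the control pool. That on AT2G25760, beside the domain of AT2G25790, had 27353 in the treat pool and 33539 in the control pool. None of these borders was called.

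Among 18 lists of genes for development, hormones, chromatin and tissue, 17 entries of 297 lay under a bordering peak and 31 under a bordered domain. Over all protein-coding genes these shares were 5.40% and 5.84%. All 16 floral identity genes lay under a domain, and for 5 of them it was bordered, where 26.6% of all domains were. Under a bordering peak lay 0 of them, and only 1 carried any H3K4me3 peak. Of 16 meristem and boundary genes, 12 lay under a domain, 4 of them under a bordered one, and 0 lay under a bordering peak. Chromatin genes under a bordering peak were FIE and VRN1 of 18 Polycomb genes, EFS of 13 Trithorax and demethylase genes and CHR11 and ATCHR12 of 16 remodellers, while ULT2 of the Trithorax list lay under a bordered domain. Of the 12 photosynthesis genes 2 lay under a bordering peak, and of the 12 ubiquitously expressed genes none did. Of 14 seed maturation genes, 13 lay under a domain and 6 under a bordered one.

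The bordering peaks on listed genes mostly had like signals in both pools. FIE, which encodes a core subunit of Polycomb repressive complex 2, had 21966 in the treat pool and 22989.6 in the control pool. VRN1, a DNA-binding protein gene of the vernalization response, had 25172 in the treat pool and 27133 in the control pool. EFS, an H3K36 methyltransferase gene, had 16578 in the treat pool and 20429.8 in the control pool. TOE2 had 29279.8 in the treat pool and 35442 in the control pool, and its relative RAP2.7, also named TOE1, had 32982 in the treat pool and 36742 in the control pool; both encode AP2-type repressors of flowering. RBCS1A, a Rubisco small subunit gene, had 37944 in the treat pool and 34739 in the control pool. ERF6 and ERF104, ethylene response factor genes, had 14598 and 11755 in the treat pool and 16261 and 9921 in the control pool. SPL11, above, was the only listed gene with a called bordering peak on it.

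Listed genes under a domain were bordered almost always by a peak on another gene. The 31 peaks beside 30 listed domains had signals between 3291 and 35524 in the treat pool and between 4759.75 and 36215 in the control pool. Their median log2 ratio was -0.10, 29 were within 1.5-fold and 2 were called. H3K27me3 was lower in the treat pool in 28 of the 30 domains, with a median log2 ratio of -0.32, and only the SPL11 domain was called. Relative to the median of all H3K27me3 peaks, 25 of the 30 were lower. The median over all bordered domains was -0.23.

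LFY, the transcription factor gene that starts flower formation, lay under a domain of 3360 bp with 53334 in the treat pool and 68228 in the control pool. The peak on GUT1, 100 bp away, had an H3K4me3 signal of 30982 in the treat pool and 29009 in the control pool. FLC, the repressor of flowering that answers to cold, had a domain with 71448 in the treat pool and 87091 in the control pool, and the border on AT5G10150 had 24605 in the treat pool and 22966 in the control pool. In both pairs H3K27me3 was lower and H3K4me3 higher in the treat pool, and neither was called. At AG, the floral organ identity gene, the domain had 65201 in the treat pool and 67348 in the control pool. Its border on AT4G18970 was weak, with 5261 in the treat pool and 7739 in the control pool. CUC2, a boundary gene, had a domain of 10850 bp with 60101 in the treat pool and 74667 in the control pool, and its border on TAT7, an aminotransferase gene, had 15009 in the treat pool and 19178 in the control pool. The second called border stood next to CASP1, a gene of the Casparian strip of roots, where a peak of 80 bp on AT2G36090 fell to 3291 in the treat pool, against 6777 in the control pool. WOX5, a root stem cell gene, and LOX3, a jasmonate synthesis gene, were the listed domains with H3K27me3 higher in the treat pool. WOX5 had 31456 in the treat pool and 28834 in the control pool, and the border on MEE34 had 19359 in the treat pool and 21179.7 in the control pool.

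**Figure D5:**
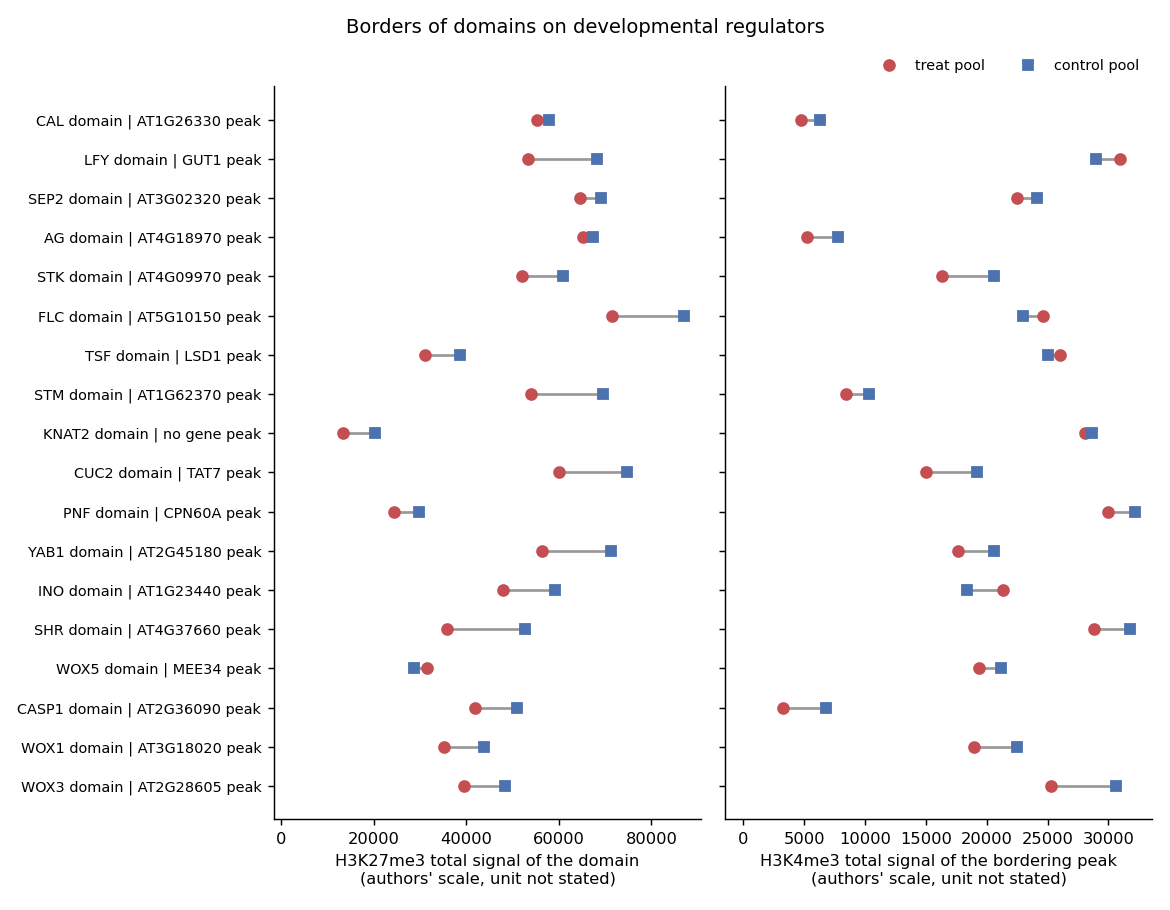
Domains on listed developmental and root regulators (left, H3K27me3 total signal) and the H3K4me3 total signal of the peak that borders each (right; authors' scale, unit not stated). Circles are the treat pool and squares the control pool; H3K27me3 is lower in the treat pool in every line but WOX5, while the circles fall on either side of the squares in H3K4me3.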

How the data were processed

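ChIP-seq of H3K27me3, H3K4me3 and H3 was done in 6 groups of 3 samples. Per the submitters' processing notes, Bowtie and the build TAIR10 were used; how peaks were called and normalised is not given in the sources used here. Total signal and height are scores deposited by the authors with no stated unit, for pools of 3 replicates per genotype according to the table names, with an unknown depth. The log2 ratios (treat over control pool) and the FDR, read as a q-value, are also as deposited by the authors, and so are the widths in bp. Where 1 pool is listed at 0 no fold was computed. H3 tables were not used here.

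Members were found by position with Python 3.11.15, numpy 2.4.6 and pandas 2.3.3, and the search was tested on simulated peaks. A gap of 0 means that 1 peak ends where the other starts. Coordinates are those of the files. Peaks took the name of the protein-coding gene with most overlap in a RefSeq gene table of TAIR10.1, whose coordinates are not printed, for 27444 nuclear protein-coding genes; listed genes needed 150 bp of a peak. All 297 list entries matched, 16 by a locus set by hand because the symbol was shared.

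The members, the 18 gene lists and the rules were chosen with earlier results of these data known. Named were called peaks and domains whose higher pool reached the median of that value, by size of the ratio, pairs called in both marks, the highest signals, the longest domains, islands between domains, listed genes and the closest gaps; others are said to be named after their values were seen. Alternatives changed the thresholds, the measure, the centring, signal filters, the gap and length limits and the regions used. Sequence was not analysed here. 1 peak that the naming rule selects is not reported here.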

Additional observations from a re-analysis of the deposited data

How the results depend on the processing

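No paired analysis was possible because each genotype has 1 merged value per peak, and for the same reason no replicate could be left out. Changing the gap or length limits changes how many peaks are counted. Against 20 and 42 bordering H3K4me3 peaks called higher and lower, a gap limit of 500 bp gave 8 and 19 and a limit of 2000 bp gave 41 and 76, while domains of 2000 bp or more gave 8 and 21. An FDR under 0.001 left 1 and 0, and adjusting the deposited FDR once more by Benjamini-Hochberg left 0 and 0. Adjusting a value already read as a q-value is only a stricter limit, here and below. Peak height gave 9 and 24. A filter on mean signal left 1 and 1, and a filter on the higher pool left 2 and 5; over all H3K4me3 peaks these filters left 0.425% and 0.709% called. A 2-fold limit left 24 lower, and peaks of 300 bp or more gave 11 higher.

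Against 6 and 38 bordered domains called higher and lower, an FDR under 0.001 and the Benjamini-Hochberg adjustment left 0 and 0. Peak height gave 3 higher. Domains of 500 bp or more gave 10 and 58, and domains of 2000 bp or more gave 2 and 10. Lower domains numbered 25 with a gap limit of 500 bp and 65 with a limit of 2000 bp.

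Pairs called in both marks, 4 in the report, were 2 with a 2-fold limit, 2 by height, 1 with the filter on the higher pool, 1 at 500 bp, 8 at 2000 bp and 10 with domains of 500 bp or more. They were 0 under the stricter FDR, the adjustment, the filter on mean signal and domains of 2000 bp or more.

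The median H3K4me3 log2 ratio of the borders was -0.067 by height, -0.091 with domains of 2000 bp or more and -0.0020 after subtracting the median of all H3K4me3 peaks. That of the bordered domains was -0.27 by height and -0.087 after subtracting the median of all H3K27me3 peaks, which was -0.14. Both medians kept their direction under every alternative run. The cause of these changes was not tested, beyond the smaller or larger sets that the limits themselves select. What limits all results is that each genotype has 1 pooled value and an unknown depth, and that which pool is the mutant is not stated.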
